A study of Mus musculus with 2 samples.

Results

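The transforming growth factor beta (TGF-beta) genes described here were the ligands Tgfb1, Tgfb2 and Tgfb3, the receptors Tgfbr1 and Tgfbr2, the signal-carrying Smad3, and the feedback and target genes Smad7, Skil and Tgfbi. They were taken by gene name from the non-control spots of both arrays. These 9 genes had 16 of the array's 55681 probes, on 43 spots of each array. All 9 were among the 19221 genes bright enough to be tested, and 14 of the 16 probes passed the same brightness filter.

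The samples were mIMCD3 cells, a mouse epithelial line of inner medullary collecting duct origin, given FGF23 at 10 ng/mL for 4 h or left unstimulated. FGF23 is a bone-derived hormone best known for lowering phosphate reabsorption in the kidney. The question was whether it changes gene expression in tubule cells beyond calcium and phosphate handling. FGF23 RNA carried Cy3 and unstimulated RNA Cy5 on array 1, and the dyes were exchanged on array 2, so the direction of every ratio rests on the dye labels. Nothing in the labels says that the arrays came from separate cultures, so the p-values measure only spread between these 2 arrays, which may be technical. That spread was largely fitted over all genes rather than taken from the tested gene alone. One cell line was used, and RNA per cell cannot be told apart from the number of cells that express a gene.

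TGF-beta ligands are secreted in a latent form and, once released, bring the type II receptor (encoded by Tgfbr2) and the type I receptor (Tgfbr1) together. The type I receptor phosphorylates Smad2 and Smad3, which enter the nucleus with Smad4 and switch on target genes. Among those targets are Smad7 and Skil, which dampen the signal, and Tgfbi, which encodes a secreted matrix protein. In the kidney the pathway is known mainly for its part in fibrosis.

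Each array had 62976 spots, 59305 of them not controls, and no spot was saturated. Between 48.2% and 55.2% of spots were well above background, depending on dye and array. Precision is limited by there being 2 arrays. The log2 ratios of all genes had SDs of 0.15 (array 1) and 0.13 (array 2), and their Pearson correlation between the arrays was -0.12 across genes, which are not independent replicates. Of 16 collecting duct and ureteric markers, 12 were measured, among them Aqp2, Cdh1, Krt8, Gata3 and Pax2, whereas Aqp3, Avpr2, Ret and Elf5 were not bright enough. Of the markers of cells known to make much TGF-beta, 2 of 10 fibroblast markers (Col1a1 and Twist2) and 4 of 9 macrophage markers (Csf1r, Cd14, Cd68 and Itgam) were measured, and none passed the test.

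The arrays measured each gene through 60-base oligonucleotides, which decide what a value stands for. The probes used for Tgfb1 and Tgfb2 are shown whole, since the ligands are related in sequence. Capitals mark the bases that are identical where the probes are aligned without gaps.
Tgfb1 A_51_P390715: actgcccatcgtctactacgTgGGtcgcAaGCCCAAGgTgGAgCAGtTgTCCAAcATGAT
Tgfb2 A_65_P10913: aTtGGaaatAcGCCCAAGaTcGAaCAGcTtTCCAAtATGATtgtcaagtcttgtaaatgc
They share 28 of 41 aligned bases (68.3%), with no gap-free stretch of identity beyond 7 bases. Over all 110 pairs of probes from different genes of the set, the longest shared run was 9 bases, between Smad3 and Tgfbi. The Tgfb1 probe lies on chromosome 7 from 26489877 to 26489936 and the Tgfb2 probe on chromosome 1 from 188449333 to 188449392 (mm9, per the file headers). The probe of Tgfb3 lies on chromosome 12 from 87397804 to 87397863.

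For Tgfbr1 and Skil, probes to different places in the gene gave different ratios, so the first 30 bases of each kept probe are shown, with no base in capitals.
Tgfbr1 A_55_P2137206: tttcatcctaacactacagtagaaaatgga
Tgfbr1 A_55_P2137211: ctttttatctcatatgtgcagatcttgcaa
Skil A_51_P118132: tgccaatgcatatagttttatgattaaaat
Skil A_52_P597461: tgctcagaggatggaggaattctatattga
On mm9 the Tgfbr1 probes lie on chromosome 4, from 47427736 to 47427795 and from 47424946 to 47425005. Those of Skil lie on chromosome 3, from 31021203 to 31021262 and from 31016390 to 31016449.

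After 4 h of FGF23 none of the 9 TGF-beta genes passed limma's test in either direction, and none had an unadjusted p under 0.05, where 3.91% of all genes did. Over all 19221 genes, 0.0468% passed as higher and 0% as lower. The mean log2 ratios of FGF23 over unstimulated ran from -0.13 for Tgfb2 to 0.13 for Tgfb3, and the lowest unadjusted p was 0.16. Of the 14 kept probes none passed when all 26943 kept probes were tested, of which 0.0854% did. The 95% intervals of the 9 fold changes all lay between 0.798 and 1.24, so none included a 1.5-fold change in either direction. These intervals cover the brightest probe of each gene under the main processing and rest largely on a spread fitted over all genes. With median centring the SDs of the 9 genes over the arrays were larger, 0.62 (Tgfb2) to 1.06 (Skil), and intervals under other processing are not given here. The intervals may not hold the spread between cultures, so they do not exclude a larger change there.

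Intensities below are in scanner units after background correction, with an offset of 50, and dye normalization, and they can be compared between conditions on 1 array but not between probes. The arrays were not scaled to each other, so an overlap of conditions across arrays is a looser comparison. The offset makes the ratios of dim probes too small. Tgfb1, the ligand most studied in kidney fibrosis, had 329 and 362 with FGF23 on arrays 1 and 2, against 374 and 347 in unstimulated cells. FGF23 was thus lower on array 1 and slightly higher on array 2, and the conditions overlapped. The log2 ratios were -0.18 and 0.059, with a mean of -0.062 ± 0.17 (SD, n = 2 arrays) and a 95% interval of -0.26 to 0.14.

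Tgfb2, a second ligand, had 525 and 465 with FGF23, against 528 and 551 in unstimulated cells. Both unstimulated values were above both FGF23 values, but array 1 showed almost no difference. Its log2 ratios were -0.0065 and -0.25 (mean -0.13 ± 0.17, 95% interval -0.33 to 0.073, unadjusted p = 0.19 in limma). A second, dimmer Tgfb2 probe, at 188447534 to 188447593, repeated this array by array, with log2 ratios of 0.025 and -0.21. Within each array the 2 probes were thus close to each other, while the arrays differed for both.

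Tgfb3, the third ligand, had 526 and 555 with FGF23, against 477 and 511 in unstimulated cells. It was higher with FGF23 on each array, and both FGF23 values were above both unstimulated values. The log2 ratios were 0.14 and 0.12 (mean 0.13 ± 0.018, a 1.09-fold difference, 95% interval -0.057 to 0.32), and limma's adjusted p was 0.99995.

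**Figure D1:**
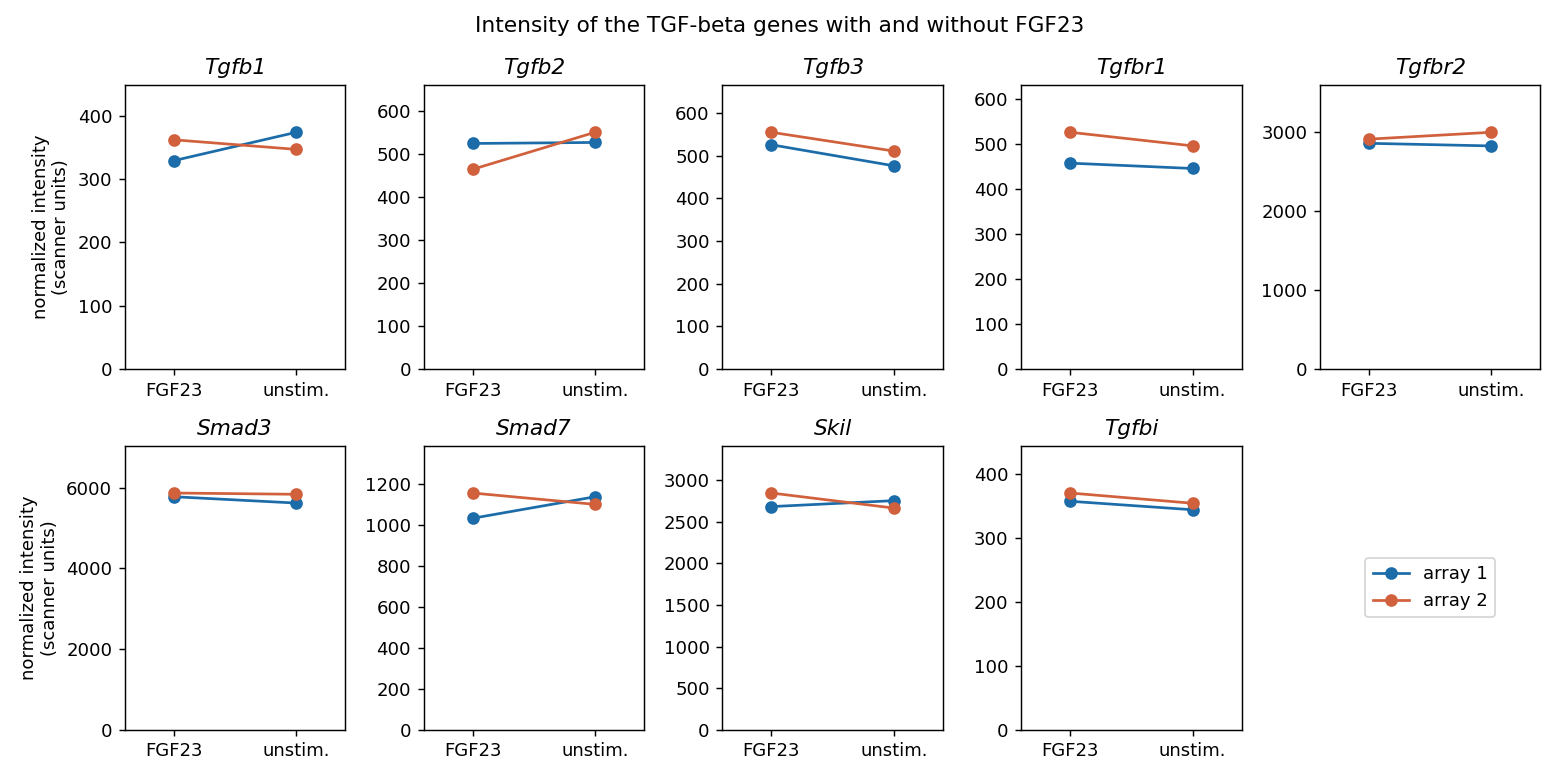
Normalized intensity (scanner units, linear axis from 0) of the probe used for each TGF-beta gene with FGF23 (left of each panel) and in unstimulated cells (right). Lines join the 2 conditions of 1 array, blue for array 1 and orange for array 2. The slopes of Tgfb1, Tgfbr2, Smad7 and Skil have opposite signs on the arrays, and those of Tgfb2, Tgfb3, Tgfbr1, Smad3 and Tgfbi have 1 sign.

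The probes of Tgfb1, Tgfb3 and Skil were each printed on 10 spots per array, which shows how exact 1 array is. These spots share the same labelled RNA, so they are not replicates of the condition, and no test was made over them. For Tgfb1, all 10 spots were below 0 on array 1, with log2 ratios from -0.34 to -0.088 and a median of -0.19. On array 2, 8 of 10 were above 0, from -0.015 to 0.15 with a median of 0.052. The ranges of the arrays did not overlap, so the arrays differed by more than the scatter of spots (SD 0.073 on array 1 and 0.054 on array 2).

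For Tgfb3, every spot not flagged as an outlier was above 0, 10 on array 1 (0.043 to 0.21, median 0.15) and 8 on array 2 (0.044 to 0.23, median 0.092). Its arrays overlapped throughout. Skil behaved like Tgfb1, with 7 of 9 spots below 0 on array 1 (-0.071 to 0.025) and 9 of 9 above 0 on array 2 (0.054 to 0.13).

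**Figure D2:**
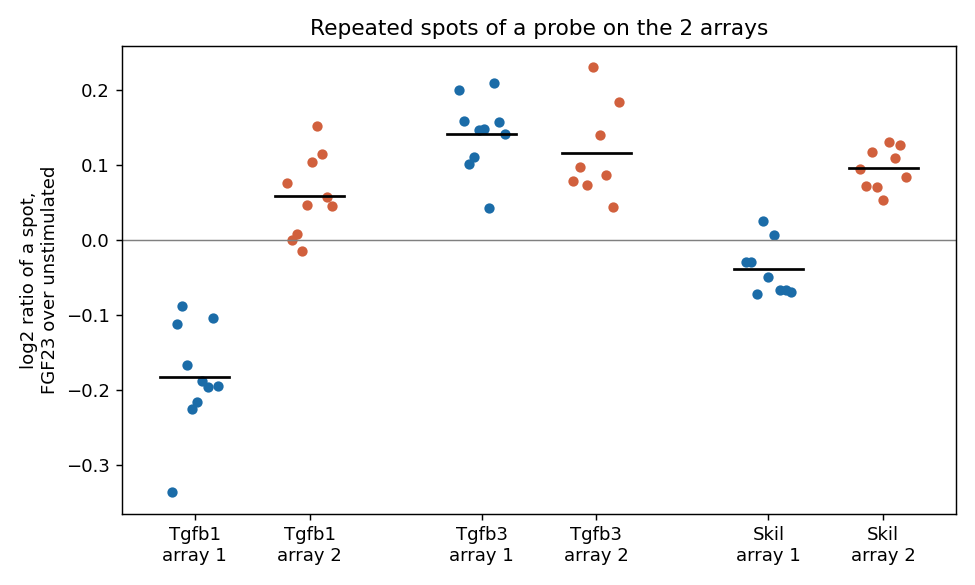
Log2 ratio of FGF23 over unstimulated for each repeated spot of the Tgfb1, Tgfb3 and Skil probes, on array 1 (blue) and array 2 (orange), with the mean of the spots as a black bar. The means are -0.18 and 0.059 for Tgfb1, 0.14 and 0.12 for Tgfb3, and -0.039 and 0.096 for Skil.

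At the brightest probes of Tgfb1, Smad7 and Skil, the sign of the ratio followed the dye, since the Cy5 side was the brighter on both arrays. Averaged over the arrays with neither turned, the log2 ratio of Cy5 over Cy3 was 0.12 for Tgfb1, 0.11 for Smad7 and 0.067 for Skil. At the dimmer Skil probe it was -0.062, and the ratio had 1 sign on both arrays. For both Tgfb2 probes it was -0.12, brighter in Cy3. Such a dye effect drops out of the mean over both arrays and enters the SD. It cannot be told apart here from a difference between the RNAs of the arrays. At the brightest probes of Tgfb3, Tgfbr1, Tgfbr2, Smad3 and Tgfbi the log2 ratio of Cy5 over Cy3 lay between -0.030 and 0.024. Of these, Tgfbr2 (-0.030) also had a sign that followed the dye, with Cy3 the brighter on both arrays.

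Tgfbr1 encodes the type I receptor, the kinase that phosphorylates Smad2 and Smad3. Its brightest probe had 457 and 526 with FGF23, against 445 and 496 in unstimulated cells. FGF23 was slightly higher on both arrays, and the conditions overlapped across arrays. The log2 ratios were 0.038 and 0.085 (mean 0.062 ± 0.034, 95% interval -0.12 to 0.25).

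The other kept Tgfbr1 probe was close to background and went the other way, with 81.4 and 79.1 with FGF23, against 84.1 and 92.4 in unstimulated cells. With FGF23 it cleared the background on 1 of 2 arrays, against 2 of 2 in unstimulated cells. Its log2 ratios were -0.048 and -0.22, and limma over all 26943 kept probes gave it an unadjusted p of 0.15, the lowest of the 14 kept probes. With the scanner software's log ratio, which adds no offset, the values were -0.36 and -0.99. The second had a p-value of 0.021 from the scanner software, the lowest of the 86 spot values of the set over both arrays. How often spots of other genes reached such a value was not examined here. Raw signals of this probe were 46.0 and 64.6 with FGF23, against 67.5 and 59.0 in unstimulated cells, where median background was 40 in Cy3 and 37 in Cy5.

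The remaining 2 Tgfbr1 probes, annotated to Ensembl transcripts alone, did not pass the brightness filter. A_55_P1960906 was not well above background on either array in either condition, and A_55_P1960901 was so on 1 array in unstimulated cells only. Their ratios were not tested and are shown only in the plot of probe ratios.

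Tgfbr2 encodes the type II receptor, which binds the ligand first. It had 2853 and 2906 with FGF23, against 2820 and 2993 in unstimulated cells, and the conditions overlapped. The log2 ratios were 0.017 and -0.043 (mean -0.013 ± 0.042, 95% interval -0.20 to 0.17). Its dimmer probe had log2 ratios of 0.081 and 0.055. The probes lie on chromosome 9, the brighter from 115997155 to 115997214 and the dimmer from 115999496 to 115999555 (mm9).

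Smad3, which carries the signal from the type I receptor to the nucleus, had 5774 and 5866 with FGF23, against 5617 and 5835 in unstimulated cells. The conditions overlapped and the log2 ratios were 0.040 and 0.0078 (mean 0.024 ± 0.023, 95% interval -0.16 to 0.21). A dim second probe had -0.061 and -0.030. Both lie on chromosome 9, the brighter from 63494574 to 63494633 and the dimmer from 63497492 to 63497551.

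Smad7, the inhibitory Smad that targets the type I receptor for degradation, had 1033 and 1157 with FGF23, against 1139 and 1101 in unstimulated cells. Its single probe, on chromosome 18, was lower with FGF23 on array 1 and higher on array 2. The log2 ratios were -0.14 and 0.071 (mean -0.034 ± 0.15, 95% interval -0.23 to 0.16).

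Skil encodes SnoN, a co-repressor that binds Smads. It had 2684 and 2848 with FGF23, against 2756 and 2667 in unstimulated cells, and the conditions overlapped. The log2 ratios were -0.039 and 0.096 (mean 0.028 ± 0.095, 95% interval -0.16 to 0.22). Its second, dimmer probe was lower with FGF23 on both arrays, at -0.066 and -0.19 (mean -0.13 ± 0.088, limma unadjusted p = 0.16 over all kept probes). The sign of the Skil mean therefore depended on the probe.

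Tgfbi, named for its induction by TGF-beta, had 357 and 370 with FGF23, against 343 and 354 in unstimulated cells. FGF23 was the higher by a little on both arrays, at log2 ratios of 0.055 and 0.064 (mean 0.059 ± 0.0065, a 1.04-fold difference, 95% interval -0.13 to 0.25). Its probe lies on chromosome 13 from 56740460 to 56740519 (mm9).

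**Figure D3:**
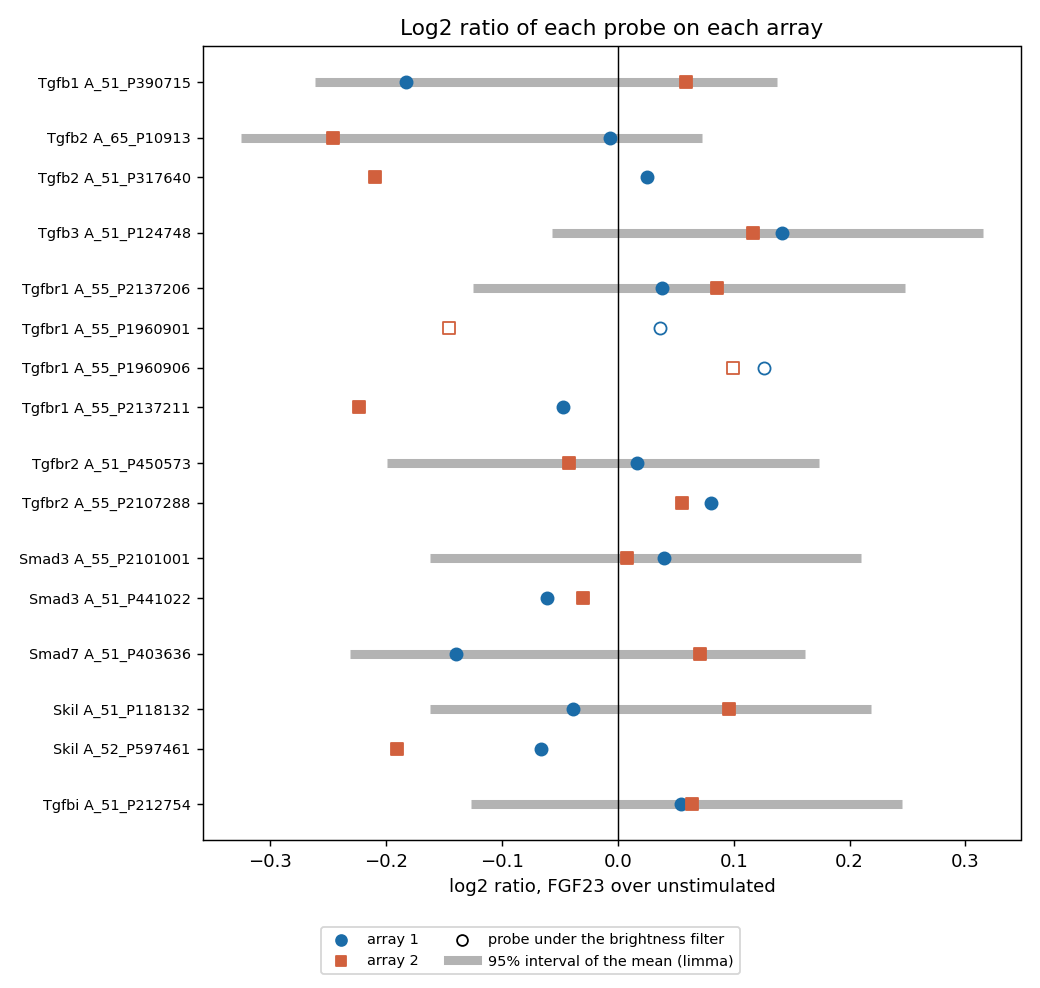
Log2 ratio of FGF23 over unstimulated for each of the 16 probes on array 1 (blue circles) and array 2 (orange squares), with open symbols for the 2 probes that did not pass the brightness filter. Grey bars are the 95% interval of the mean of the probe used for the gene, from limma. Every grey bar includes 0.

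Set side by side, the 5 ligand and receptor genes had a median log2 ratio of -0.013 (0.017 on array 1 and 0.059 on array 2), and the 3 feedback and target genes had 0.028 (-0.039 and 0.071). Over all genes tested the median was -0.00064 (-0.012 and 0.015). With the kept probes of a gene averaged, the medians were -0.037 for ligands and receptors and -0.034 for feedback and target genes, so the sign of that median depended on the choice of probe. Of the 9 genes, 4 (Tgfb3, Tgfbr1, Smad3 and Tgfbi) were above 0 on both arrays at their brightest probe, where 23.9% of all genes were. The dimmer kept probes of Tgfbr1 and Smad3 were below 0 on both arrays, so for these genes the sign depended on the probe. Only Tgfb2 was below 0 on both arrays, where 22.3% of all genes were. Its array 1 value was -0.0065, against 0.033 with the scanner software's log ratio and 0.025 at its second probe. By role, 2 of 5 ligands and receptors and 1 of 3 feedback and target genes were above 0 on both arrays. The difference between the roles was not tested.

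**Figure D4:**
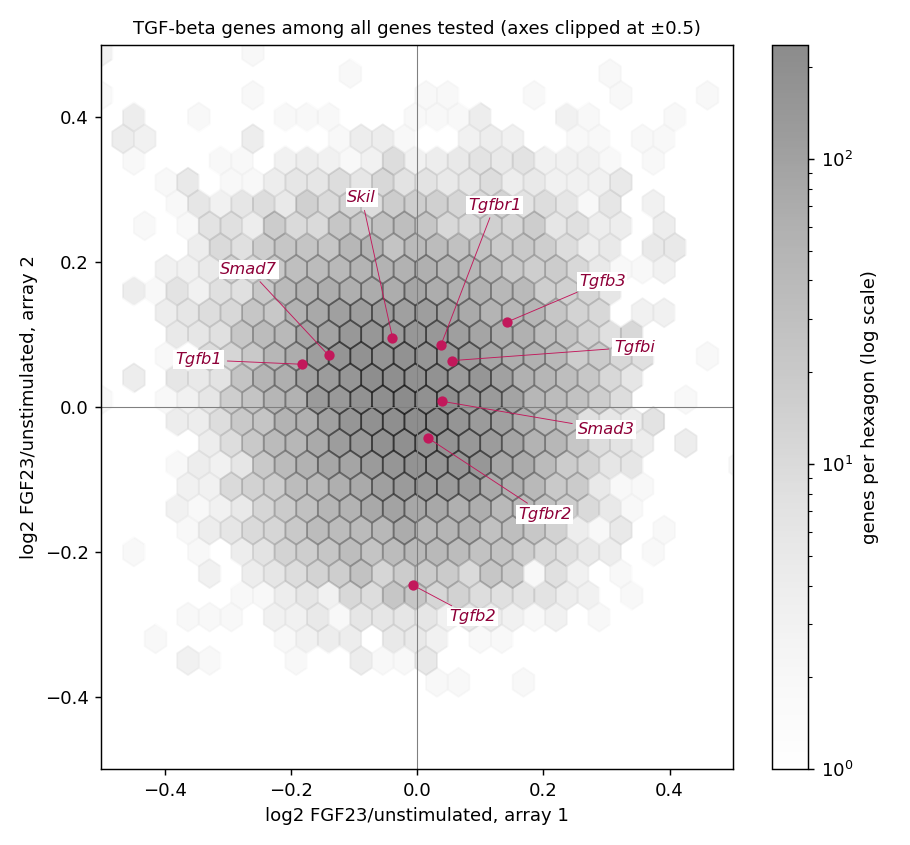
Log2 ratio of FGF23 over unstimulated on array 1 (x axis) and array 2 (y axis) for all genes tested, as hexagons shaded by the number of genes on a log scale, with the 9 TGF-beta genes as labelled points. The axes end at 0.5 in each direction, and the TGF-beta genes lie within the main body of genes.

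Other genes of the pathway were read from the same fit. Of 86 on the array, 72 were bright enough to test, and 0 passed in limma in either direction, with 3 higher and 7 lower at an unadjusted p under 0.05. Among all genes 2.6% were higher and 1.31% lower at that unadjusted level. When limma used an intensity trend with a robust prior, 3 of the 72 passed, all lower (Inhba, Tagln and Acta2), where 0.104% of all genes passed as lower.

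Among other ligands of the family, 10 of 13 were tested. Inhba, which encodes the activin A subunit, had 1122 and 1133 with FGF23, against 1483 and 1400 in unstimulated cells. The conditions did not overlap, and the mean log2 ratio was -0.35 ± 0.069 (95% interval -0.54 to -0.17). Limma's adjusted p was 0.38, and 0.024 with the intensity trend and robust prior. Bmp4, a bone morphogenetic protein, had 423 and 410 with FGF23, against 413 and 327 in unstimulated cells (mean 0.18 ± 0.21).

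Of the 11 genes of the latent complex and its activation, 10 were tested, with a median of 0.030. Thbs1, a matrix protein that can activate latent TGF-beta, had a mean log2 ratio of -0.17 ± 0.15, and the latent-binding protein Ltbp2 had -0.12 ± 0.028. Of 8 ligand traps, 5 were tested. The follistatin-like Fstl3 had 129 and 171 with FGF23, against 122 and 130 in unstimulated cells (mean 0.24 ± 0.22), most of it on array 2. Noggin (Nog), which binds bone morphogenetic proteins, had -0.14 ± 0.085. The probes of Fstl3 and Nog were dim, and the size of their ratios depended on the offset. With an offset of 0 the means were 0.39 for Fstl3 and -0.25 for Nog, and with the scanner software's log ratio 0.45 and -0.37.

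Of 12 other receptors and co-receptors, 9 were tested. On both arrays 3 were above 0, where 23.9% of all genes were, and 0 below, where 22.3% were. Tgfbr3, which encodes betaglycan, the co-receptor that presents ligand to Tgfbr2, had 291 and 337 with FGF23, against 242 and 304 in unstimulated cells. It was higher with FGF23 on each array, with a mean log2 ratio of 0.21 ± 0.087 (95% interval 0.019 to 0.40). Its unadjusted p was 0.034 and its adjusted p 0.99995 in limma. The activin receptor Acvr1b had 0.17 ± 0.060. Of 16 other Smads and partners, 15 were tested, with a median of 0.059. On both arrays 7 were above 0 and 0 below, beside the same 23.9% and 22.3% of all genes. The ubiquitin ligases Nedd4l (0.16 ± 0.18, and 0.066 at its second probe) and Trim33 (0.15 ± 0.0062) were the largest by the naming rule.

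Among the lists of other pathway genes, the target genes had the lowest median, -0.078 over 23 tested of 26, at -0.091 on array 1 and -0.036 on array 2. On both arrays 11 were below 0, where 22.3% of all genes were, and 6 were above, where 23.9% were. None passed. The actin-binding gene Tagln had 1390 and 1268 with FGF23, against 1736 and 1871 in unstimulated cells. The conditions did not overlap, and the mean log2 ratio was -0.44 ± 0.17 with an adjusted p of 0.22 in limma. The smooth muscle actin gene Acta2 had 552 and 595 with FGF23, against 747 and 783 in unstimulated cells (-0.41 ± 0.028, adjusted p = 0.21 in limma). With the intensity trend and robust prior, limma's adjusted p was 0.00045 for Tagln and 0.0036 for Acta2. Both are also targets of other pathways, and whether these differences involve TGF-beta was not tested.

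**Figure D5:**
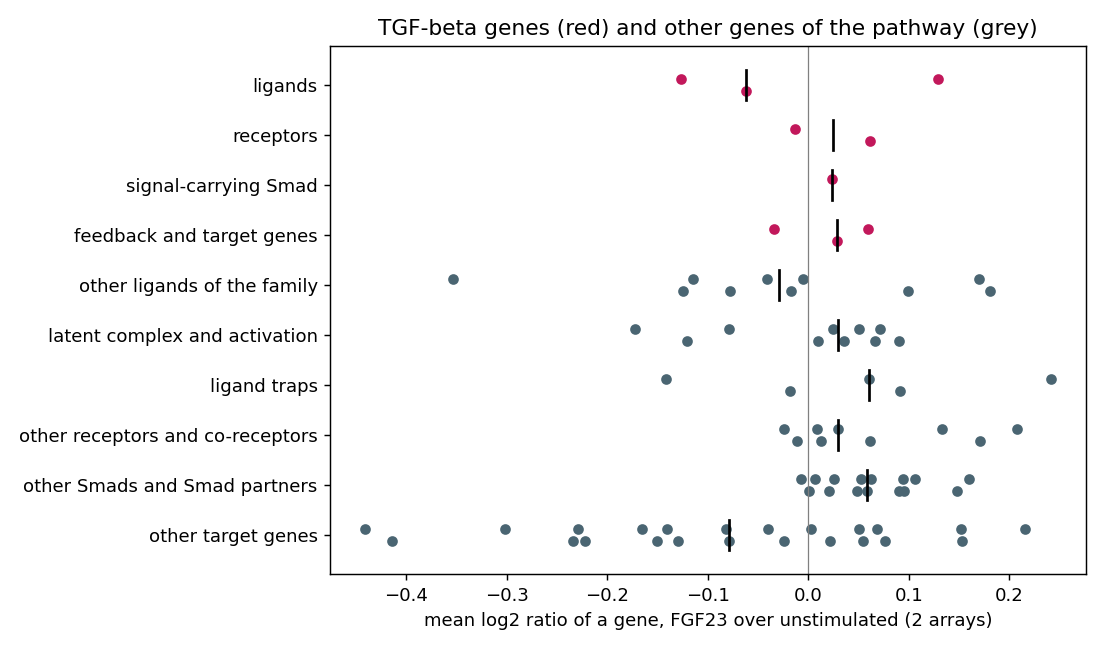
Mean log2 ratio of FGF23 over unstimulated over the 2 arrays, with 1 point per gene and a black bar at each list's median. The 9 TGF-beta genes are red and the other genes of the pathway grey. The red points lie between -0.13 and 0.13, and the grey points between -0.44 and 0.24.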

How the data were processed

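Total RNA of mIMCD3 cells was hybridised to 2 two-colour Agilent arrays, each holding RNA with FGF23 and RNA without it, with the dyes exchanged between arrays. Per the file headers, Feature Extraction 11.5.1.1 gave each spot a linear intensity in each dye. It also deposited a log10 ratio of Cy5 over Cy3, background-subtracted and dye-normalized, with its p-value from the software's error model, and flagged outlier and saturated spots and those well above background. From the deposited intensity values, the mean signals had their local background corrected by normexp with an offset of 50, and were normalized by loess within each array (limma 3.58.1, R 4.3.3). Ratios were turned to FGF23 over unstimulated by the dye labels. Spots flagged as outliers and control spots were left out, and the spots of a probe were averaged. Kept probes were well above background on both arrays with FGF23, or on both without it. This kept 26943 of 55681 probes. Each of 19221 genes was represented by the brightest of its kept probes. Of the probes, 28026 matched a RefSeq transcript (GRCm38.p6) and took its symbol, which changed the name for 1651. No gene of the set was renamed.

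Ratios of the 2 arrays were tested in limma (lmFit, eBayes), with Benjamini-Hochberg adjustment over all genes and 0.05 as the threshold. Residual degrees of freedom were 1, and the prior added 12.0. The 95% intervals come from the same fit and are not adjusted for the number of genes. All 9 genes and their probes are named. Of each list of other pathway genes, those past the test were named, or otherwise the 2 with the largest mean log2 ratio of 1 sign on both arrays. The 9 genes and the lists were chosen with earlier results of these data known. The fit was also run on simulated ratios, drawn independently for the 2 arrays with the fitted spread and no dye effect. That run cannot show how well the fit suits these arrays, and its outcome is not given here. Alternatives were a normexp offset of 0, the scanner software's log ratio, median centring, no filter, a stricter filter, averaged probes, another variance model, the scanner software's p-values and single arrays. Some genes of the lists are not reported here by name. Where the probes lie relative to exons was not analysed here.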

Additional observations from a re-analysis of the deposited data

How the results depend on the processing

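None of the 9 TGF-beta genes passed under any of the 7 processing alternatives fitted in limma or with the scanner software's p-values. None of their kept probes passed with an offset of 0 or with an intensity trend and robust prior. With the scanner software's log ratio and with median centring no gene at all passed, so those fits could not set the 9 genes apart. With median centring their SDs over the arrays ran from 0.62 (Tgfb2) to 1.06 (Skil), against at most 0.17 in the main setting. The 9 genes past the test over all genes became 5 with an offset of 0, 0 with the scanner software's log ratio, 0 with median centring, 17 with averaged probes and 79 with the intensity trend and robust prior. Other pathway genes past the test numbered 3 with that variance model and 0 otherwise. The causes were not tested. Averaging the kept probes of a gene turned the sign of Tgfbr1 (-0.037), Tgfbr2 (0.028), Smad3 (-0.011) and Skil (-0.050), since their dimmer probes differ from the bright ones. Of the 63 values of the 9 genes under processing alternatives, all but these 4 kept their sign and their side of the threshold. Many of the 63 could not change sign, so the count does not measure stability. No filter, the stricter filter and the intensity trend with robust prior left the mean of each of the 9 genes unchanged. Averaging could not alter Tgfb1, Tgfb3, Smad7 or Tgfbi, which had a single kept probe. Among the genes with more kept probes, only Tgfb2 kept its sign on averaging. On a single array the sign turned for 4 genes, Tgfb1, Tgfbr2, Smad7 and Skil. The median of ligands and receptors ran from 0.017 to 0.059 on single arrays, both above its -0.013 over the gene means. The median of feedback and target genes ran from -0.039 to 0.071 on single arrays. With averaged probes the medians of ligands and receptors and of feedback and target genes were -0.037 and -0.034. No paired analysis was possible because there is a single group of 2 arrays, each of which already pairs both conditions. Slide or scan as a block was not run, since a ratio holds both conditions and such a block would leave no comparison between arrays. Low signal limited 3 of the 4 Tgfbr1 probes.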

Other observations

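Among the 23 other target genes tested, 6 were lower and 1 was higher at an unadjusted p under 0.05 in limma, where 1.31% of all genes were lower and 2.6% higher, and none passed after adjustment. They were picked after their values were seen. Besides Tagln and Acta2, the lower ones included Vim, an intermediate filament gene (log2 ratios -0.20 and -0.41 on arrays 1 and 2), Ccn2, a secreted matricellular protein (-0.18 and -0.28), and Hmga2, a chromatin protein, whose difference came from array 1 (-0.46 and -0.0039). The higher one was Cdkn1a, the cell cycle inhibitor p21 (0.20 and 0.24). Pmepa1, a feedback inhibitor of the pathway, had 0.019 and 0.024, and Junb had 0.040 and 0.097.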
